A study of Mus musculus with 3 samples.

Results

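The genes described here are 10 members of the matrix metalloproteinase (MMP) system in LPS-stimulated RAW macrophages, namely the proteases *Mmp2*, *Mmp3*, *Mmp8*, *Mmp9*, *Mmp12*, *Mmp13*, *Mmp14* and *Mmp19* and the inhibitors *Timp1* and *Timp2*. Their probes were found on the arrays by gene symbol. The 10 genes are carried by 15 probes, of 26832 genes with a symbol and 56605 probes. RAW cells are an established mouse macrophage line. The cells were given *Lactobacillus rhamnosus* CRL1505 or *L. plantarum* CRL1506 for 24 h at 50000000 cells/mL and then LPS, a Gram-negative cell wall component sensed through TLR4, at 50 ng/mL. The control cells received LPS without lactobacilli, so every condition carries the LPS stimulus. The length of the LPS stimulus is given as 12 h in one place and 3 h in another and was not settled here. There was 1 one-colour array for each of LPS, CRL1505 + LPS and CRL1506 + LPS, so no difference below has a replicate check and no p-value is given. Non-stimulated cells were not analysed here.

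MMPs are zinc-dependent endopeptidases, most of them secreted as inactive proenzymes, that cut collagens, elastin, proteoglycans and many cell surface and signalling proteins. Tissue inhibitors of metalloproteinases (TIMPs) bind the active site of the mature enzymes, and TIMP2 also takes part in the activation of pro-MMP2 by the membrane-bound MMP14. Macrophages are known for the elastase MMP12 and the gelatinase MMP9, and inflammatory stimuli act on many MMP promoters through AP-1 and ETS family factors.

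The 3 arrays were not placed alike. The LPS and CRL1506 + LPS arrays shared slide 1 and scan 1, and the CRL1505 + LPS array was on slide 2 and in scan 2, so CRL1505 and its slide cannot be told apart in any value below. Between 48.5% (CRL1505 + LPS) and 55.3% (CRL1506 + LPS) of the gene spots on an array were well above background. Values are log2 intensities minus the 75th percentile of their array, and a ratio is a difference of these. Both strains were compared with the same LPS array, and any error of that array enters both comparisons. All 9 macrophage markers on the array were well above background on all 3 arrays. Of 8 fibroblast and osteoblast markers, 0 passed that limit with LPS, 1 (*Col1a2*) with CRL1505 + LPS and 3 with CRL1506 + LPS, the last being *Col1a1*, *Col1a2* and *Dcn*.

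*Mmp13*, *Mmp12*, *Mmp3* and *Mmp8* lie on chromosome 9 in a run of 10 MMP genes with no other protein-coding gene between them, in the gene order of RefSeq for GRCm38.p6. The bases upstream of their starts are shown because these neighbours differed in detection and in the direction of their ratios. The sequences are from RefSeq (GRCm38.p6, plus strand), each is the 250 bases before a transcript start written 5′ to 3′, and capitals mark matches to the AP-1 motif TGANTCA, which was searched on both strands. *Mmp12* has a window for each of 2 starts, and the one shown is that of the start further along the chromosome, which holds the motif.
Mmp13, chr9:7272264-7272513: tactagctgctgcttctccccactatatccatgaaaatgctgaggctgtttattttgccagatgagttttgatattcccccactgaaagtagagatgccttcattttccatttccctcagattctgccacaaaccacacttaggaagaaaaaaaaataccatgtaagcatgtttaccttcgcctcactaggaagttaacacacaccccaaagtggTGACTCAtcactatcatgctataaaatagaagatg
Mmp12, chr9:7347124-7347373: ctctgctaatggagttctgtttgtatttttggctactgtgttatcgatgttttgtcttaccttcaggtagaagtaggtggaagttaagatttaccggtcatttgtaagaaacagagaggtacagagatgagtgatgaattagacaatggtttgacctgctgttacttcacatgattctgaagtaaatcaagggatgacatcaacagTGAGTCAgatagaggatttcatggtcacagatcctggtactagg
Mmp3, chr9:7445572-7445821: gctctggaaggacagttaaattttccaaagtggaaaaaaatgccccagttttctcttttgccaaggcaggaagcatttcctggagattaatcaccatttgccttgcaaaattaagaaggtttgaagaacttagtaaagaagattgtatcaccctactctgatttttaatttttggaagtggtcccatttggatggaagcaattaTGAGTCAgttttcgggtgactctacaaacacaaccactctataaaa
Mmp8, chr9:7558179-7558428: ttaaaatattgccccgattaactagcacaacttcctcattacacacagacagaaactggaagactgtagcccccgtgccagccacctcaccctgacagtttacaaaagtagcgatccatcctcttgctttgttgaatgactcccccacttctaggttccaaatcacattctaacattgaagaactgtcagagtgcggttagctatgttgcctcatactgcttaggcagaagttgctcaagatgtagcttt

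The AP-1 motif was found in the windows of *Mmp13*, *Mmp3* and *Mmp12*, against 6.75% of all 32851 windows of this length. In *Mmp13* it reads TGACTCA and lies from -35 to -29 relative to the start. In *Mmp3* it reads TGAGTCA and lies from -46 to -40, and in *Mmp12* the same letters lie from -44 to -38. The windows of *Mmp8*, *Mmp14*, *Timp1* and *Timp2* and that of the other *Mmp12* start hold no match to it. The ETS core AGGAAG, in either orientation, is frequent, being present in 29.5% of all windows, and it occurred in the windows of *Mmp13* (2 matches), *Timp1* (2 matches), *Mmp3*, *Mmp8* and *Mmp14* and in the other *Mmp12* window. The STAT motif TTCNNNGAA (7.02% of all windows) and an NF-kappaB consensus (0.98%) had no match in the 8 windows of the 7 genes with an entry. *Mmp2*, *Mmp9* and *Mmp19* had no entry. These matches are letters in a window and were not tied to binding. The AP-1 match was present both in *Mmp13*, which was well above background on every array, and in *Mmp3*, which was on none. A relation between motif and level was not tested.

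Of the 10 genes, 7 were well above background on all 3 arrays, and *Mmp2*, *Mmp3* and *Mmp14* on none. With CRL1505 + LPS, *Mmp13* and *Mmp8* were at least 2-fold higher than with LPS and *Timp2* was at least 2-fold lower. Among all 15602 genes compared, 9.93% passed 2-fold upward and 8.41% downward. With CRL1506 + LPS, *Mmp8* alone was at least 2-fold higher and none of the 7 was at least 2-fold lower, against 5.67% and 3.53% of 16279 genes. Between the strains, *Mmp13* alone was at least 2-fold higher with CRL1505 + LPS and none was at least 2-fold lower, against 9.02% and 7.47% of 15779 genes. The median log2 ratio of the 7 genes was 0.46 for CRL1505, -0.08 for CRL1506 and -0.20 between the strains, beside medians of 0.01, -0.06 and 0.03 over all genes.

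**Figure D1:**
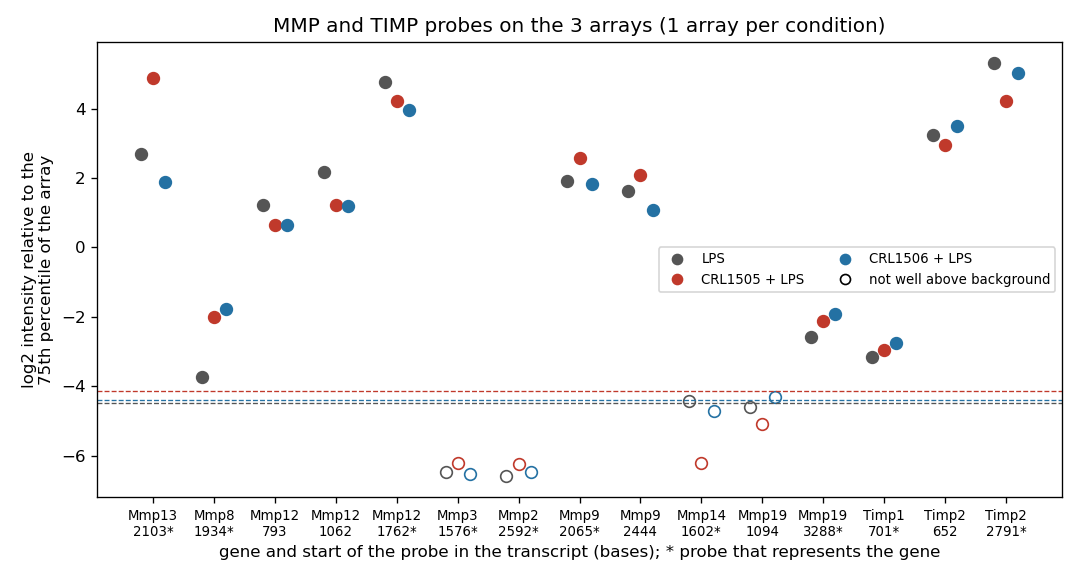
Each point is 1 probe on 1 array, with the log2 intensity relative to the 75th percentile of the array on the vertical axis and the genes and probe starts on the horizontal axis. Open points were not well above background, and dashed lines give the lowest log2 signal of a probe well above background on each array (-4.48 on the LPS array, -4.12 with CRL1505 + LPS and -4.40 with CRL1506 + LPS). *Mmp13* is highest on the CRL1505 + LPS array, *Mmp8* is lowest on the LPS array, and the 3 *Mmp12* probes are highest on the LPS array.

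*Mmp13* encodes collagenase-3, the main interstitial collagenase of mice, and had the largest ratio among these genes. Its intensity was 4795 with LPS, 15130 with CRL1505 + LPS and 2562 with CRL1506 + LPS. The corresponding relative log2 levels were 2.69, 4.87 and 1.88, so the arrays with the 2 strains lay on opposite sides of the LPS array. The log2 ratio to LPS was 2.18 for CRL1505 (4.53-fold higher) and lay between 1.67 and 2.48 under 7 other normalizations. For CRL1506 it was -0.81 (1.76-fold lower), between -1.01 and -0.72 under the same normalizations, and reached 2-fold only when arrays were aligned on their medians. CRL1505 + LPS exceeded CRL1506 + LPS by 2.99 on the log2 scale, or 7.97-fold, with a range of 2.60 to 3.49. Larger ratios were found for 391 of 15602 genes in the comparison of CRL1505 with LPS and for 132 of 15779 genes between the strains. For CRL1506 against LPS, 847 of 16279 genes had a lower ratio than *Mmp13*. The gene rests on 1 probe with 1 spot per array (mm9 chr9:7282762-7282821), for which the software marked no outlier. The opposite directions in the strains were not tested, since there was 1 array each.

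The genes with the pattern most like that of *Mmp13* over the 3 arrays, by the root mean square difference of levels centred on each gene's mean, were *2210411M09Rik*, *Ikzf4*, *BC048594*, *4930483O08Rik* and *Gm10426*, among 13122 genes well above background on all arrays. Their differences from *Mmp13* ran from 0.079 to 0.136 on the log2 scale. *Ikzf4*, which encodes an Ikaros family zinc finger protein, had log2 ratios to LPS of 1.94 with CRL1505 and -0.97 with CRL1506. A likeness over 3 points is a description only.

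*Mmp8* encodes neutrophil collagenase, which is stored in neutrophil granules and is also made by macrophages. Its intensity was 56.37 with LPS, 130.2 with CRL1505 + LPS and 204.4 with CRL1506 + LPS. The LPS value was close to the dimmest probes counted as well above background on that array, whose lowest intensity was 33.3. Both arrays with lactobacilli were above the LPS array, with log2 ratios of 1.73 (3.32-fold) for CRL1505 and 1.95 (3.86-fold) for CRL1506. The strains differed by -0.22, with a range of -0.62 to 0.28 that included 0. The range over normalizations was wider here than for *Mmp13*. The ratio for CRL1505 lay between 0.89 and 2.03 and was at least 2-fold under 5 of 7 other normalizations, and that for CRL1506 lay between 0.93 and 2.03, also with 5 of 7. A spot was called uneven here, apart from the marks of the software, when the log2 ratio of its mean to its median signal exceeded 0.2. Of the 20 spots nearest to the *Mmp8* spot, 6 were uneven on the CRL1505 + LPS array, and the *Mmp8* spot itself was not. Its position is mm9 chr9:7567968-7568026.

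Neutrophil genes are given beside *Mmp8* because of its usual source. Of 8 neutrophil markers, 5 were well above background with LPS, 5 with CRL1505 + LPS and 6 with CRL1506 + LPS, and their summed level relative to the 75th percentile was 3.21, 2.45 and 3.58. The LPS sum leaves out *Ly6g*, which had no usable value on that array. *S100a8* had log2 ratios of -1.31 with CRL1505 and 0.31 with CRL1506. *S100a9*, its partner in calprotectin, was well above background only on the CRL1505 + LPS array, where it was at least 9.04-fold higher than with LPS under the main scaling (log2 values of 1.93 to 3.52 under the others). *Ltf* was well above background only with CRL1506 + LPS, and *Ly6g*, whose spot was an outlier on the LPS array, only with CRL1505 + LPS. The relative level of *S100a8* was 0.83 with LPS, -0.48 with CRL1505 + LPS and 1.14 with CRL1506 + LPS. The sums followed the same order, which not all other markers did. By the description of the study, only the RAW line was cultured, with no other cell type. The cause of the *Mmp8* ratio was not tested, and more RAW cells with a transcript and more transcript per cell cannot be told apart in bulk RNA.

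The gelatinases MMP2 and MMP9 cut denatured collagen and basement membrane collagen IV. *Mmp2* did not pass the background limit on any array, with intensities of 7.716 with LPS, 6.892 with CRL1505 + LPS and 7.884 with CRL1506 + LPS. *Mmp9* was measured by 2 probes, both brighter than background on every array. The probe that represents it, which spans an intron (mm9 chr2:164779091-164780300), had intensities of 2780 with LPS, 3120 with CRL1505 + LPS and 2470 with CRL1506 + LPS. The LPS and CRL1506 + LPS arrays were nearly level for this probe, and the CRL1505 + LPS array was above both. The log2 ratio to LPS was 0.69 with CRL1505 (0.18 to 0.99 under other normalizations) and -0.08 with CRL1506 (-0.28 to 0.01). The other probe (mm9 chr2:164780620-164780679) gave 0.47 and -0.53, and its range for CRL1505 reached -0.03. Between the strains the probes gave 0.77 and 1.0, and both were higher with CRL1505 + LPS under all normalizations. *Mmp9* thus stayed under 2-fold against LPS with either strain.

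Stromelysin-1, the product of *Mmp3*, cuts proteoglycans and activates other pro-MMPs. *Mmp3* passed the background limit on none of the arrays, with intensities of 8.373 with LPS, 7.047 with CRL1505 + LPS and 7.676 with CRL1506 + LPS. *Mmp10*, the gene of stromelysin-2 in the same run on chromosome 9, was well above background on all arrays with relative levels of -1.15 with LPS, -2.16 with CRL1505 + LPS and -2.60 with CRL1506 + LPS. Both arrays with lactobacilli were below the LPS array for *Mmp10*, by -1.02 and -1.45 on the log2 scale. The first lay between -1.52 and -0.66 and was at least 2-fold under only 2 of the 7 other normalizations, and the second was at least 2-fold under all 7.

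*Mmp12* encodes macrophage metalloelastase, and its 3 probes were all highest on the LPS array. The probe that represents it (mm9 chr9:7358559-7358618) had intensities of 20280 with LPS, 9666 with CRL1505 + LPS and 10870 with CRL1506 + LPS. Its log2 ratio to LPS was -0.55 with CRL1505 and -0.81 with CRL1506. The probe that spans an intron (mm9 chr9:7354810-7355325) had the lowest ratios, -0.95 and -0.96, from intensities of 3327, 1195 and 1606. The probe nearest to the transcript start (mm9 chr9:7352935-7352994) had intensities of 1726, 803.2 and 1099 and ratios of -0.58 and -0.56. Every probe was below the LPS array with both strains under the main and the 7 other normalizations, and none reached 2-fold in the main values. The largest difference under another normalization was -1.46, for the intron-spanning probe with CRL1505. The SD of the ratio between the 3 probes was 0.23 for CRL1505 and 0.20 for CRL1506, beside medians of 0.228 and 0.215 over genes with several probes. Between the strains the probes gave 0.26, 0.01 and -0.02, and the range over normalizations included 0 for each of them.

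*Mmp14* encodes a membrane-type MMP and *Mmp19* a secreted MMP of broad substrate range. *Mmp14* was not counted as well above background on any array, although its intensities of 34.78 with LPS and 26.44 with CRL1506 + LPS stood above the 7.023 with CRL1505 + LPS. No ratio is given for it. The probe that represents *Mmp19* (mm9 chr10:128237761-128237820) had intensities of 123.0 with LPS, 118.0 with CRL1505 + LPS and 184.6 with CRL1506 + LPS. The log2 ratio was 0.46 with CRL1505, with a range of -0.04 to 0.76 that included 0, and 0.68 with CRL1506, with a range of 0.32 to 0.76. The other *Mmp19* probe passed the background limit on none of them.

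*Timp2*, the gene of the inhibitor that also aids pro-MMP2 activation, was lower with CRL1505 by both of its probes in the main values, and the probes did not give the same size. The brighter probe (mm9 chr11:118163146-118163205, minus strand) had intensities of 29430 with LPS, 9692 with CRL1505 + LPS and 22730 with CRL1506 + LPS. Its log2 ratio to LPS was -1.08 with CRL1505 (2.11-fold lower) and lay between -1.59 and -0.78, at least 2-fold under 6 of 7 other normalizations. With CRL1506 it was -0.28, between -0.48 and -0.16. The other probe, which spans an intron (mm9 chr11:118171964-118178741), had intensities of 7039, 3995 and 7911 and log2 ratios of -0.29 with CRL1505, between -0.80 and 0 under the other normalizations, and 0.26 with CRL1506. In the main values the probes gave the same direction for CRL1505 and opposite directions for CRL1506. Their SD for CRL1505 was 0.56, and 13.8% of genes with several probes had an SD at least as large. With the mean of both probes *Timp2* had a ratio of -0.69 with CRL1505 and -0.01 with CRL1506, so the 2-fold count for *Timp2* rests on the brighter probe. Between the strains both probes were lower with CRL1505 + LPS, by -0.80 and -0.55.

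The intron-spanning probes of *Timp2* and *Mmp12* are shown because they gave the smallest and the largest difference from LPS for CRL1505 among the probes of their gene. They start at base 652 and base 1062 of the transcript and each has 60 bases, as the array design gives them. No letter is in capitals since no base is singled out.
Timp2 probe at 652: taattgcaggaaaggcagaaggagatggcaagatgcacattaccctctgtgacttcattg
Mmp12 probe at 1062: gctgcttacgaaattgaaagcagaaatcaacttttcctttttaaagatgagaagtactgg

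**Figure D2:**
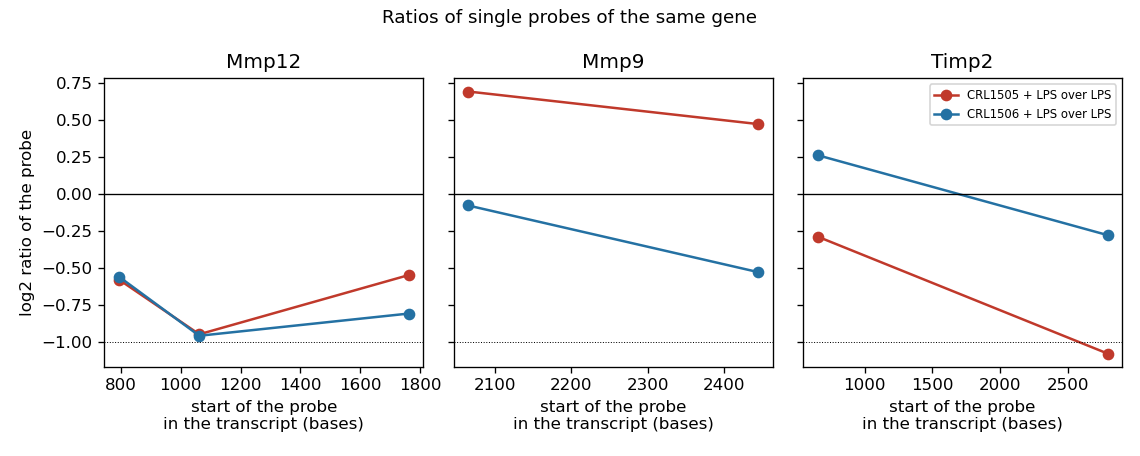
Log2 ratio to LPS of each probe of *Mmp12*, *Mmp9* and *Timp2* against the start of the probe in its transcript, in bases, with red for CRL1505 and blue for CRL1506 and 1 array per condition. The *Mmp12* probe at 1062 is numbered on another transcript than those at 793 and 1762. The *Mmp12* probes lie between -0.96 and -0.55 with both strains, whereas the *Timp2* probes lie 0.79 apart with CRL1505 and 0.54 apart with CRL1506.

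*Timp1* encodes the inducible, soluble inhibitor and was dim. Its intensity was 83.56 with LPS, 66.83 with CRL1505 + LPS and 103.4 with CRL1506 + LPS, at mm9 chrX:20451675-20451733. Its spot was uneven on the LPS array by the limit used for the *Mmp8* neighbours. The log2 ratios of 0.20 with CRL1505 and 0.40 with CRL1506 were under 2-fold under all normalizations, and the first ranged from -0.31 to 0.52.

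**Figure D3:**
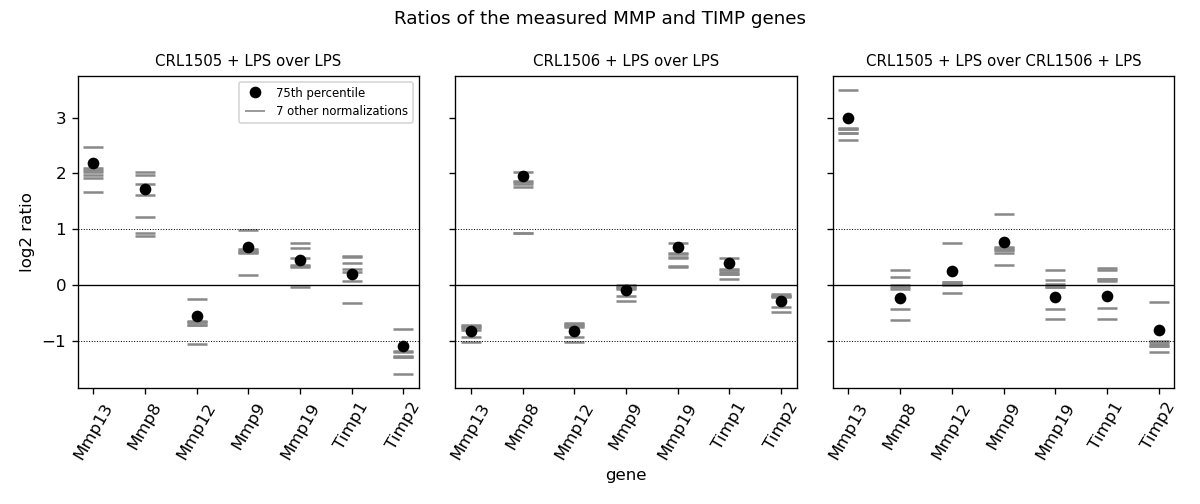
Log2 ratios of the 7 detected genes, with a panel for each comparison, black points for the 75th percentile scaling and grey bars for the 7 other normalizations. Dotted lines mark 2-fold, which *Mmp13* passes under every normalization in the left and right panels, with main values of 2.18 and 2.99.

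Of the 7 genes, *Mmp13* was the one whose ratios pointed in opposite directions from LPS with the 2 strains by more than the spread seen between probes (median SD 0.228 and 0.215 over all genes), at 2.18 and -0.81, judging each gene by the probe that represents it. The other *Mmp9* probe also did so, at 0.47 and -0.53. That spread is between probes on the same arrays. It holds no variation between cultures or slides, so it cannot show whether a direction would repeat. In the main values *Mmp8* was above the LPS array with both strains, as were *Mmp19* and *Timp1* by under 2-fold, and *Mmp12* and *Timp2* were below it with both by the probe that represents them. The median size of the log2 ratio of the 7 genes was 0.69 for CRL1505, 0.68 for CRL1506 and 0.26 between the strains, beside 0.41, 0.26 and 0.42 over all genes.

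The other genes of the pathway were taken from lists and are counted in the same way, with all counts to be read beside the shares over all genes given above. A fold written with "at least" is a bound under the main scaling only, and the ranges given are log2 values under the 7 other normalizations. Of 15 other MMPs, 8 were well above background on at least 1 array. With CRL1505 + LPS, 1 of 6 compared was at least 2-fold higher and 2 were at least 2-fold lower, and with CRL1506 + LPS 2 of 7 were higher and 2 lower. *Mmp15*, a membrane-type MMP, was well above background with LPS only and was at least 2.29-fold lower with CRL1505 and at least 2.77-fold lower with CRL1506. Its ranges of -1.70 to -0.44 and -1.83 to -0.62 kept 2-fold under 3 and 5 of the 7 normalizations. *Mmp25*, the gene of a leukocyte membrane-type MMP, was well above background with CRL1505 + LPS only and was at least 3.23-fold higher than with LPS (range 0.70 to 2.10, with 2-fold kept under 5 of 7). *Mmp20* and *Mmp27*, both in the run on chromosome 9, were well above background with CRL1506 + LPS only and were at least 4.68-fold and 2.32-fold higher than with LPS. Their ranges of 0.80 to 2.31 and 0.53 to 1.30 kept 2-fold under 6 and 5 of the 7. In that run of 10 genes, 4 were well above background on all arrays and 4 on none. Of 4 other MMP inhibitors, 2 were compared with LPS for CRL1505 and 3 for CRL1506, and none of these was at least 2-fold different. *Reck*, a membrane-anchored inhibitor, was 1.20 higher on the log2 scale with CRL1505 + LPS than with CRL1506 + LPS (range 0.72 to 1.70, with 2-fold kept under 3 of 7).

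Plasmin, made from plasminogen by urokinase, activates several pro-MMPs. Of 11 genes of plasminogen activation and proprotein convertases, 6 were compared, with 1 higher and 1 lower for CRL1505 and 1 higher and none lower for CRL1506. The relative level of *Plau*, the urokinase gene, was 2.16 with LPS, -0.39 with CRL1505 + LPS and 1.21 with CRL1506 + LPS. It was below the LPS array with both strains, by 5.86-fold with CRL1505, and its log2 ratio lay between -3.06 and -2.25 under the other normalizations. *Serpinb2*, the gene of a urokinase inhibitor, was higher with both strains, by 1.34 and 1.19, with 2-fold kept under 4 of 7 normalizations for each.

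Among 13 ADAM and ADAMTS proteases, 9 were compared, and *Adamts4*, an aggrecanase gene, was the 1 that reached 2-fold against LPS. Its log2 ratio was 1.49 with CRL1505 and -0.76 with CRL1506, and 2.25 between the strains, and the first was 0.99 at its lowest. All 8 lysosomal cathepsins were compared, with 1 higher and 1 lower for CRL1505 and 1 higher for CRL1506. The relative level of *Ctsk*, the gene of a collagen-cutting cathepsin of osteoclasts, was -3.30 with LPS, -1.76 with CRL1505 + LPS and -0.98 with CRL1506 + LPS, which was 2.90-fold and 5.01-fold above LPS. The log2 ratio for CRL1505 lay between 0.93 and 1.83 and that for CRL1506 between 1.4 and 2.41. *Ctsh*, an aminopeptidase gene, was 2.69-fold lower with CRL1505.

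Of 21 matrix and cell surface substrates, 15 were compared for CRL1505, with 4 at least 2-fold higher and none lower, and 14 for CRL1506, with 2 higher and none lower. *Fn1*, the fibronectin gene, was the 1 of these that was well above background on all arrays, with log2 ratios of 1.23 with CRL1505 (range 0.72 to 1.52) and 1.49 with CRL1506 (range 1.29 to 1.59). *Col4a1* and *Thbs1*, a basement membrane collagen gene and the thrombospondin-1 gene, were well above background with CRL1505 + LPS only and were at least 6.79-fold and 5.82-fold higher than with LPS. Their ranges of 1.67 to 3.07 and 1.48 to 2.95 stayed past 2-fold. *Col1a2* was at least 3.50-fold higher with CRL1505 (range 0.77 to 2.26), and *Col1a1* at least 3.60-fold higher with CRL1506 (range 0.74 to 1.93), each with 2-fold kept under 5 of 7. On the CRL1506 + LPS array *Dcn*, another fibroblast marker, was also well above background. Only the RAW line was cultured, by the description of the study, and the part of the slide in these dim signals was not tested. Of 6 genes of MMP uptake and induction, 4 were compared, and *Lrp1*, the gene of the receptor that clears MMP13 and MMP9, was 2.45-fold lower with CRL1505, with 2-fold kept under 6 of 7 normalizations, and had a log2 ratio of -0.69 with CRL1506.

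**Figure D4:**
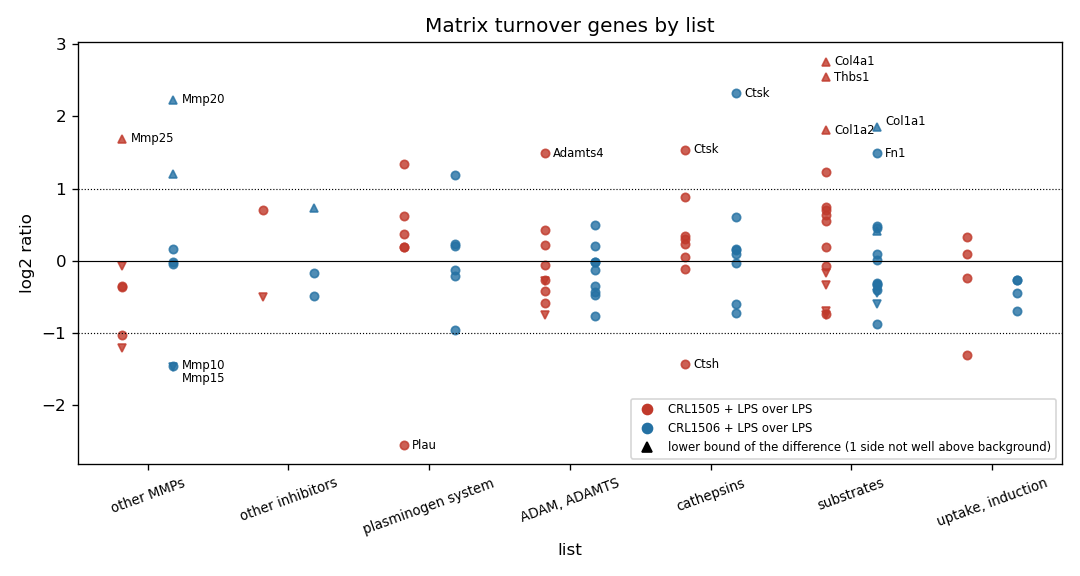
Log2 ratio to LPS of each compared gene in the 7 pathway lists, red for CRL1505 and blue for CRL1506, with triangles where 1 of the 2 arrays was not well above background and the value is a lower bound of the difference. Dotted lines mark 2-fold, and genes with a difference of at least 1.4 on the log2 scale are named, among them *Plau* at -2.55 with CRL1505 and *Ctsk* at 2.32 with CRL1506.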

How the data were processed

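RNA of RAW macrophages was measured on 60-base Agilent mouse expression arrays, 1 per condition, grouped by the sample labels. The authors deposited the Feature Extraction output of each array (version 12.0.3.1 per the file headers), whose processed signal is an intensity with background subtracted and no scaling between arrays. The authors also deposited a table of normalized log2 values, whose setting is not given in the sources used here, and which has a median of 6.86 over the gene spots of each array.

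The main value was the log2 processed signal minus the array's 75th percentile, taken over 59305 gene spots. That percentile was an intensity of 743.1 on the LPS array, 517.0 with CRL1505 + LPS and 697.9 with CRL1506 + LPS. Outlier spots were left out, spots of a probe were averaged, and a gene was represented by its brightest probe over the 3 arrays. Probes well above background on neither compared array were left out. Where 1 was not, the ratio is a lower bound against the higher of the probe's own value and the lowest signal well above background. Genes were counted at 2-fold, and no test was run. Ratios of repeat spots had a median SD of at most 0.048, which describes 1 hybridisation, and the number of arrays limits the precision.

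The other 7 normalizations were a median shift, quantile, cyclic loess, a 75th percentile limited to probes that all arrays detected, spike-in probes, normexp background correction and the deposited table. Over genes well above background on both arrays, the median log2 ratio to LPS under the main scaling was 0.06 for CRL1505 and -0.06 for CRL1506. It was 0.35 and -0.26 under the median shift, and -0.45 and -0.17 under the spike-in scaling.

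All 10 genes are named with every probe. From each list, up to 3 genes per direction and comparison were taken among those at least 2-fold apart, and likeness to the gene with the largest ratio gave 5 more. The members and lists were chosen with earlier results of these data known. A gene of the plasminogen list is not reported here and is left out of its counts. Python 3.11.15, pandas 2.3.3, NumPy 2.4.6, R 4.3.3 and limma 3.58.1 were used, and the counting was tested on simulated data. Promoter windows came from RefSeq (GRCm38.p6), and probe positions are those of the files (mm9). Exon and UTR annotation for mm9 was not used here.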

Additional observations from a re-analysis of the deposited data

Results flagged for a closer look

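The 2 strain arrays lay on opposite sides of the LPS array for *Mmp13*, with a log2 ratio of 2.18 for CRL1505 + LPS and -0.81 for CRL1506 + LPS. Each direction held under the main and the 7 other normalizations. *Mmp9* also lay on both sides, by 0.69 and -0.08 with the probe that represents it and by 0.47 and -0.53 with the other. There was 1 array per condition, and the difference between the strains was not tested.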

How the results depend on the processing

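Single-gene ratios were recomputed under 12 alternatives, the 2 other thresholds leaving ratios as they are, giving 250 values (*Timp1* had none against LPS without uneven spots), of which 207 moved by less than the median SD between probes, 43 moved by more and 0 changed sign while past 2-fold. Part of the 207 could not move. Changing the filter on dim probes, keeping outlier spots or leaving out uneven spots used the same spots wherever a ratio was given. The mean over probes changes nothing for genes with 1 measured probe. The counts of members at 2-fold moved as follows. For CRL1505 against LPS, the 2 higher became 1 with normexp, with the deposited table and at 4-fold and 3 at 1.5-fold, and the 1 lower became 0 with the median shift, the mean over probes and 4-fold and 2 with the spike-in scaling and without the filter on dim probes. For CRL1506 against LPS, the 1 higher became 0 with normexp, the deposited table and 4-fold and 2 at 1.5-fold, and the 0 lower became 2 with the median shift and at 1.5-fold. Between the strains, the 1 higher became 2 with the median shift and at 1.5-fold, and the 0 lower became 1 with quantile, cyclic loess, spike-in, normexp, the deposited table, no filter on dim probes and 1.5-fold. The causes were not tested. No paired analysis was possible because each condition had 1 array, and no array could be left out for the same reason. Dim probes limit the ratios of *Mmp8*, *Mmp19* and *Timp1*, and the ratios of *Mmp13*, *Mmp8*, *Mmp19* and *Timp1* rest on 1 probe each.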

Other observations

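*Dcstamp*, the gene of a transmembrane protein needed for osteoclast fusion, was lower than with LPS with both strains, at least 5.63-fold with CRL1505 and 3.44-fold with CRL1506, and its log2 ratio for CRL1505 lay between -3.00 and -1.37 under the 7 other normalizations. Of the 6 osteoclast markers, 3 were well above background with LPS, 2 with CRL1505 + LPS and 4 with CRL1506 + LPS. Of the others, only *Ocstamp* was also lower with both strains by more than the spread between probes, and by under 2-fold. The log2 ratios with CRL1505 and CRL1506 were -0.61 and -0.65 for *Ocstamp* and 0.1 and -0.06 for *Oscar*. *Acp5* was well above background only with CRL1506 + LPS, at least 0.68 above LPS on the log2 scale under the main scaling. *Calcr* and *Atp6v0d2* passed the background limit on no array. The macrophage markers did not move together. *Fcgr1*, the gene of the high-affinity IgG receptor, was 5.28-fold higher with CRL1505, *Adgre1*, the gene of a macrophage adhesion receptor, was 4.83-fold higher with CRL1505, and *Csf1r*, the gene of the M-CSF receptor, was 2.77-fold lower with CRL1505. With CRL1506 the log2 ratios of *Fcgr1*, *Adgre1* and *Csf1r* were 0.95, 1.0 and -0.87, in the same directions.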
